A study of Mus musculus with 7 samples.

Results

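The peaks described here lie in 9 windows of the mouse genome around 10 imprinted genes: H19 and Igf2 in a shared window, Kcnq1ot1, Snrpn, Peg3, Mest, Peg10, Grb10, Airn and Meg3. The windows, fixed by coordinates on the mm9 build, held 70 of the 107303 peaks in the reproducible lists of 3 female cell lines. There were 20 of 37270 peaks in NPC with the deltaFT deletion, 22 of 41126 in wild-type NPC and 28 of 28907 in mESC. They also held 216 of the 536904 peaks in the lists of 4 male mESC samples, for which no allele counts are given.

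The data came from ATAC-seq, in which the Tn5 transposase inserts sequencing adapters into open chromatin, on 50K cells per replicate. The female lines were neural progenitor cells (NPC) of line sgdgb2 with the deltaFT deletion, NPC of line C2 without it, and embryonic stem cells (mESC) of line F1216, all F1 hybrids of 129S1 and Cast:EiJ. Each group is thus a cell line of its own. Line and genotype cannot be told apart where the NPC lines differ. Line and cell type cannot be told apart where wild-type NPC and mESC, both wild type, differ. Between deltaFT NPC and mESC, line, genotype and cell type all differ together. The labels do not give the location of the deletion or the parent that each strain was. The male samples were J1 mESC with an inducible Xist on the X chromosome (TXY), lacking the RepA element of Xist (deltaRepA) or with it (TXY WT). Each was either grown with 2 ug/mL doxycycline for 48 hours (plus dox) or left untreated (no dox). Every group is 1 sample, so no test between groups was possible and all intervals below cover counting error only. The source label of the mESC sample names neural progenitors, against its title and medium, and the descriptions of both plus-dox samples name a no-dox file. The titles were followed. Whether the lines carry the marker genes of their cell types was not checked here, since that needs an mm9 annotation.

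Imprinted genes are transcribed from the copy of 1 parent, and the choice is written as DNA methylation in the egg or sperm and copied through cell divisions. The unmethylated copy of such a control region is usually open chromatin and the methylated copy closed, so that reads of the 2 parental alleles are unequal there. Imprints are known to be lost or changed at some loci in cultured stem cells, and several of the genes here are imprinted in some tissues only. Igf2 (a fetal growth factor), Kcnq1ot1 and Airn (long non-coding RNAs that silence neighbouring genes), Snrpn (a spliceosome protein of brain), Peg3 (a zinc finger protein), Mest (a protein of the hydrolase family) and Peg10 (derived from a retrotransposon) are known to be expressed from the paternal copy. H19 and Meg3, both long non-coding RNAs, are expressed from the maternal copy. Grb10, an adaptor of growth factor receptors, is expressed from the maternal copy in most tissues and from the paternal copy in neurons.

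Promoters of 4 of these genes are shown because the inherited methylation of their domains is known to lie over or beside them, and because 3 of their windows held a peak with unequal alleles. They are 300-base RefSeq sequences of the GRCm38.p6 build, from 250 bases before to 50 bases after the start of transcription, written 5′ to 3′ on the strand of the gene. Capitals mark CG, the dinucleotide that carries the methylation. The peaks are on mm9, so the sequences were not placed on them. The Kcnq1ot1 promoter is at chr7:143296498-143296797 on the minus strand, the Snrpn promoter, shared with Snurf, at chr7:60005150-60005449 on the minus strand, the Peg3 promoter at chr7:6730370-6730669 on the minus strand and the Mest promoter at chr6:30737800-30738099 on the plus strand.
Kcnq1ot1: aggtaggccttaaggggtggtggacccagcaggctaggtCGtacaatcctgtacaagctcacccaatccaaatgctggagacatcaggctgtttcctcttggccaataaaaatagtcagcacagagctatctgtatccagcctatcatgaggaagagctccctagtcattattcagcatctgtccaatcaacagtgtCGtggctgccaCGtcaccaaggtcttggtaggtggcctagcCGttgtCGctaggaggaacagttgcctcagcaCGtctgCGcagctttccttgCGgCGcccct
Snrpn: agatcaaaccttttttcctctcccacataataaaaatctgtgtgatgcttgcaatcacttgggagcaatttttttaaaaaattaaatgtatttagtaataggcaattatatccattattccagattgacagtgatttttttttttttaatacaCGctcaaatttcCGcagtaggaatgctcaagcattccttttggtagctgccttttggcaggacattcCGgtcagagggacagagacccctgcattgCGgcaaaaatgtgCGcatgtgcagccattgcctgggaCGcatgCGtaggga
Peg3: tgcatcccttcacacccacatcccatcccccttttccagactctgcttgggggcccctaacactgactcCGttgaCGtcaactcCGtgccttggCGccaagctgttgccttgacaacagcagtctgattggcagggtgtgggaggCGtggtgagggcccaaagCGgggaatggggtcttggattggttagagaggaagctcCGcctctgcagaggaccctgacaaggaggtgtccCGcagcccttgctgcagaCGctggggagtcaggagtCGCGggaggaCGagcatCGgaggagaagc
Mest: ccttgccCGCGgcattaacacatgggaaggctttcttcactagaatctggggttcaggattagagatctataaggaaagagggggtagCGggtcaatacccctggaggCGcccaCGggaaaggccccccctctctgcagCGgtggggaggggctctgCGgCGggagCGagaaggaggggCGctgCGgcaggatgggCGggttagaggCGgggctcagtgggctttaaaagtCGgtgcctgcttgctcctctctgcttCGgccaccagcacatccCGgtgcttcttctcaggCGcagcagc

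These promoters held 9 CG in Kcnq1ot1, 7 in Snrpn, 13 in Peg3 and 17 in Mest, where the median of the 32851 promoters in the table was 7. As many CG as in Mest were found in 31.4% of all promoters, and as many as in Peg3 in 37.9%. Of the 10 genes, 8 had 18 promoters in the table, among them 2 of Mest that start 3 bases apart. The richest in CG was a Grb10 promoter at chr11:12037371-12037670, with 45, a number reached by 1.93% of all promoters. The hexamer TGCCGC, which the imprint-protecting zinc finger protein ZFP57 binds when it is methylated, was searched on both strands (as TGCCGC or GCGGCA). It was found in 6 of the 18 promoters, against 11.6% of all promoters, a share not matched for CG content. The 6 include both overlapping Mest promoters, with the same 2 matches. The Snrpn promoter shown and 1 promoter each of Igf2, Grb10 and Meg3 had 1 match. There was none in the promoters shown for Kcnq1ot1 and Peg3. A match is a string of letters and not a binding site.

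The reproducible lists give, for each peak, the raw reads and the reads that carry the first-listed or the second-listed allele, and the columns do not say which strain is which. In the 9 windows the peaks held 8764 reads in deltaFT NPC, 14805 in wild-type NPC and 8450 in mESC, of which 40.6%, 38.0% and 35.5% were allelic. The 3 whole lists held 11085592, 11014387 and 6490181 reads. Peaks that overlapped between lines were joined to 43 sites; the peaks were 165 to 1742 bp wide. There were 8 sites in all 3 lines, 8 in 2 lines and 27 in 1 line.

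Most imprinted-window peaks with enough allelic reads could not be told from equal shares, as was true of most autosomal peaks. A few were read almost entirely from 1 allele. A peak with at least 10 allelic reads was called unequal where 1 allele held at least 80% of them. In deltaFT NPC 4 of 19 usable peaks, at 3 sites, were unequal (21.1%), against 4.68% of the autosomal peaks outside the windows. In wild-type NPC it was 2 of 21 (9.52%), against 5.79% of autosomal peaks, and in mESC 1 of 20 (5.0%), against 4.98%. The share in deltaFT NPC is above its background but rests on 4 peaks, 2 of them at the same site, and the share in mESC is at its background. The exact 95% interval of the first-listed share included 50% in 14 of 19 peaks in deltaFT NPC, 13 of 21 in wild-type NPC and 15 of 20 in mESC. The autosomal shares that did so were 69.6%, 67.8% and 71.7% in the same order of lines. An interval that includes 50% can also reflect few allelic reads. The median first-listed share of the usable peaks was 49.80% in deltaFT NPC, 46.95% in wild-type NPC and 50.98% in mESC. No site was unequal in more than 1 line, but not every site could be compared. The unequal Peg10 and Meg3 sites had a reproducible peak in 1 line only. The unequal Grb10 site, at 81.82% first-listed in wild-type NPC, was just inside the limit in deltaFT NPC, at 75.61%.

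**Figure D1:**
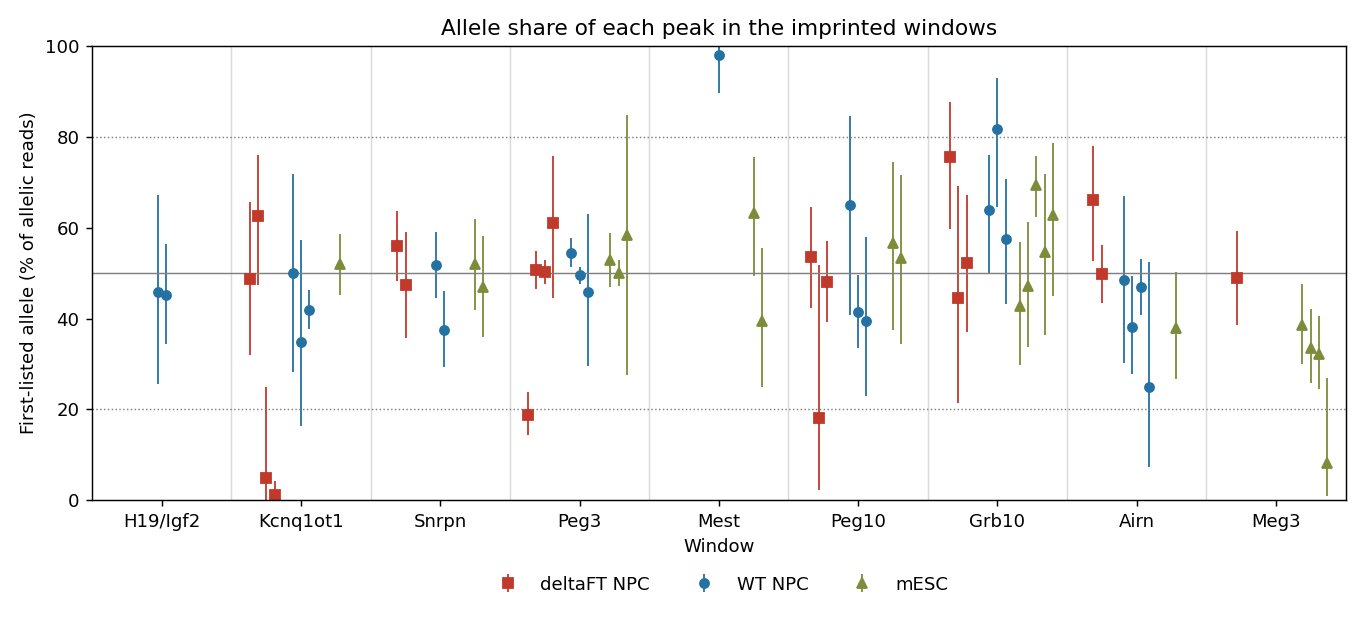
First-listed share of allelic reads (y axis, percent) for each peak with at least 10 allelic reads in the 9 windows (x axis), with exact 95% intervals, in deltaFT NPC, wild-type NPC and mESC. Dotted lines mark the 20% and 80% limits and the solid line 50%; the lowest point is a Kcnq1ot1 peak of deltaFT NPC at 1.17% and the highest the Mest peak of wild-type NPC at 98.08%.

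The most unequal site was in the Kcnq1ot1 window, at chr7:150481911-150482931. In deltaFT NPC it held 2 peaks, of which the larger had 2 first-listed and 169 second-listed reads (1.17% first-listed, 95% interval 0.14 to 4.16%, 507 reads in all). The smaller had 1 first-listed and 19 second-listed reads (5%, 0.13 to 24.87%). In wild-type NPC the peak here had 224 and 310 reads of the first-listed and second-listed alleles (41.95%, 37.72 to 46.26%), and in mESC it had 117 and 108 (52.00%, 45.26 to 58.69%). The deltaFT intervals thus lay far below both others, while wild-type NPC and mESC overlapped. Of the 13682 autosomal peaks of deltaFT NPC with at least 100 allelic reads, 40 (0.292%) had at least 98% of them on 1 allele, as the larger peak did. In wild-type NPC 0.458% of such peaks did so, and in mESC 0.187%. The 98% limit was not among the planned limits and lies just under this peak's own 98.83%, so these shares do not test the peak. At the 80% limit the shares of such peaks were 2.57% in deltaFT NPC, 3.38% in wild-type NPC and 3.59% in mESC.

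Against mESC, deltaFT NPC was lower at this site mostly in the first-listed allele. Against wild-type NPC it was lower in both alleles, the first-listed by more. Counts were scaled to 1000000 reads in autosomal peaks of the same line (RPM). First-listed reads came to 0.28 RPM in deltaFT NPC, 20.9 in wild-type NPC and 18.9 in mESC. Second-listed reads came to 17.3, 28.9 and 17.5 RPM in the same lines. Total reads at the site were 56.0 RPM in deltaFT NPC, 132 in wild-type NPC and 83.7 in mESC. The chromosome around it was balanced: within 2 Mb on either side of the window the first-listed share was 48.66% in deltaFT NPC, 48.69% in wild-type NPC and 49.10% in mESC. The site was among the strongest peaks of every library, between the 97.3 and the 100 percentile by −log10 p within each of the 6 library lists.

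The other Kcnq1ot1 peaks were near equal or held few allelic reads. At chr7:150383882-150384447 the share was 48.65% of 37 reads in deltaFT NPC and 50.00% of 22 in wild-type NPC, with no mESC peak. A deltaFT peak at chr7:150396717-150397051 had 62.50% of 48 reads (47.35 to 76.05%), a wild-type NPC peak at chr7:150459623-150460032 34.78% of 23 (16.38 to 57.27%), and an mESC peak at chr7:150475035-150475337 only 2 allelic reads. The first 3 of these 4 sites were in no mESC or TXY list. Over the window the first-listed share was 18.48% (14.08 to 23.57%) in deltaFT NPC, 41.97% (37.91 to 46.11%) in wild-type NPC and, near equal, 51.54% (44.84 to 58.21%) in mESC. Without the largest peak the deltaFT share was 46.67% of 105 reads. Those still include the smaller peak of the unequal site, with 1 first-listed and 19 second-listed reads.

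The Peg3 window held the deepest peaks of all the windows and showed another difference of this kind. At chr7:6648916-6649606, deltaFT NPC had 53 first-listed and 228 second-listed reads (18.86%, 14.46 to 23.93%). Wild-type NPC had 516 and 431 (54.49%, 51.25 to 57.69%) and mESC 151 and 134 (52.98%, 47.01 to 58.89%). First-listed reads were 4.89 RPM in deltaFT NPC, 48.1 in wild-type NPC and 24.45 in mESC, and second-listed reads 21.0, 40.2 and 21.7. Both alleles were thus lower in deltaFT than in wild-type NPC, the first-listed by more. At the 80% limit this peak is only just called unequal, with 81.14% on the second-listed allele.

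**Figure D2:**
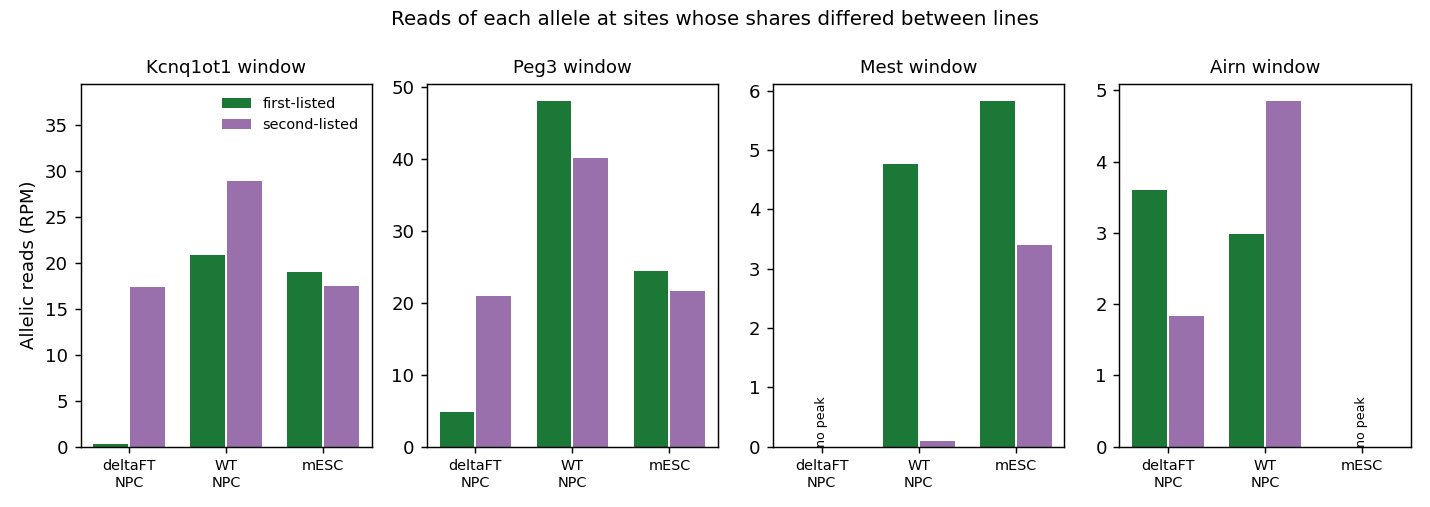
Reads of the first-listed and second-listed allele in RPM (per 1000000 reads in autosomal peaks) (y axis, a separate scale in each panel) at 4 sites, in deltaFT NPC, wild-type NPC and mESC; each bar is 1 sample. First-listed reads of deltaFT NPC are 0.28 RPM at the Kcnq1ot1 site and 4.89 at the Peg3 site, second-listed reads of wild-type NPC are 0.09 at the Mest site, and lines without a reproducible peak are marked.

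The other Peg3 sites did not share that difference. At chr7:6679980-6681737 the 2 deltaFT peaks had 50.73% of 550 (46.46 to 54.98%) and 50.32% of 1425 allelic reads (47.69 to 52.94%). Wild-type NPC had 49.49% of 2825 (47.63 to 51.35%) and mESC 50.04% of 1217 (47.19 to 52.89%). All 4 intervals hold 50%. At chr7:6682971-6683349 the shares were 60.98% of 41, 45.95% of 37 and 58.33% of 12 reads in deltaFT NPC, wild-type NPC and mESC, with overlapping intervals. There 3.38 to 6.03% of the reads were allelic. The whole window was at 46.76% in deltaFT NPC, 50.70% in wild-type NPC and 50.66% in mESC, and the 2 Mb around it at 51.57, 51.70 and 52.27%.

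In the Mest window the wild-type NPC peak at chr6:30686990-30687220 had 51 first-listed reads and 1 second-listed read (98.08%, 89.74 to 99.95%), and the mESC peak had 36 and 21 (63.16%, 49.34 to 75.55%). DeltaFT NPC had no reproducible peak here, although a peak was present in each of its library lists, so the share of that line was not measured. The second mESC peak, at chr6:30687920-30688417, had 39.53% of 43 reads (24.98 to 55.59%). It was present in both library lists of each NPC line as well. Within 2 Mb of the window wild-type NPC had 53.39% and mESC 49.02% first-listed reads. The Mest peak of wild-type NPC rests on 75 reads in all.

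At Snrpn, whose start region is the imprinting centre of its domain, no peak was unequal. The site at chr7:67148752-67149816 was read at 56.07% of 173 allelic reads in deltaFT NPC (48.33 to 63.59%), 51.85% of 189 in wild-type NPC (44.48 to 59.16%) and 46.99% of 83 in mESC (35.93 to 58.26%). The mESC peak at chr7:67147756-67148199, with 51.92% of 104 reads (41.91 to 61.83%), was in no NPC list and in all 4 TXY lists. At chr7:67149902-67150171 deltaFT NPC had 47.37% of 76 reads (35.79 to 59.16%), and wild-type NPC had 37.41% of 139 (29.36 to 46.01%), where the interval lies below 50%.

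At the main Peg10 site, chr6:4698516-4699502, the first-listed share was 48.06% of 129 reads in deltaFT NPC (39.19 to 57.03%), 41.40% of 157 in wild-type NPC (33.61 to 49.53%) and 53.33% of 30 in mESC (34.33 to 71.66%). The 3 intervals overlap, and that of wild-type NPC lies just below 50%. A deltaFT peak at chr6:4697794-4697993 was called unequal on 2 first-listed and 9 second-listed reads, and its interval, 2.28 to 51.78%, holds 50%. The 4 other usable Peg10 peaks ran from 39.39 to 65.00%, each with an interval that holds 50%. At chr6:4690365-4690955, in no mESC or TXY list, deltaFT NPC had 53.57% of 84 reads and wild-type NPC 65.00% of 20.

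In the Airn window the deepest site, chr17:12986619-12987502, had 49.80% of 249 reads in deltaFT NPC (43.42 to 56.18%) and 46.95% of 262 in wild-type NPC (40.78 to 53.19%), and was in no mESC or TXY list. The site at chr17:12952494-12953009 leaned opposite ways. It had 39 first-listed and 20 second-listed reads in deltaFT NPC (66.10%, 52.61 to 77.92%) and 32 and 52 in wild-type NPC (38.10%, 27.71 to 49.34%). The usable mESC peak, at chr17:12962213-12962791, had 38.03% of 71 reads (26.76 to 50.33%). Reads in the reproducible peaks of this window were 40.75 RPM in deltaFT NPC, 128 in wild-type NPC and 47.8 in mESC. They come from 2, 5 and 2 peaks, so the sums also depend on how many peaks were listed.

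Among the genes expressed from the maternal copy, H19 shares its window with Igf2, and its peaks were informative in wild-type NPC only. There the peaks at chr7:149766413-149766768 and chr7:149766006-149766315 had 45.24% of 84 reads (34.34 to 56.48%) and 45.83% of 24 (25.55 to 67.18%). DeltaFT NPC had no reproducible peak in the window, but 6 and 1 peaks in its library lists. The strongest mESC peak, at chr7:149796900-149797411, had 367 reads of which 6 were allelic, 3 of each allele, so its share is not resolved. It was also the strongest peak of the window in each of the 4 TXY lists, from the 88.9 to the 98.7 percentile.

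Meg3 was the window with the clearest lean in mESC. Its 6 mESC peaks held 147 first-listed and 293 second-listed reads (33.41%, 29.01 to 38.03%), but the 2 Mb around the window leaned further, with 25.34% first-listed (24.68 to 26.02%). In the NPC lines that stretch was near equal, at 47.47% in deltaFT NPC and 49.35% in wild-type NPC. Peak reads of the stretch came to 3372 RPM in deltaFT NPC, 3696 in wild-type NPC and 5626 in mESC. The mESC lean was therefore measured over the whole stretch of the chromosome and is not particular to the window. The peak with most allelic reads, at chr12:110780959-110781440, had 32.17% of 143 reads in mESC (24.61 to 40.49%). The unequal peak at chr12:110824088-110824445 had 2 first-listed and 22 second-listed reads (8.33%, 1.03 to 27.00%), an interval that holds the 25.34% around it. In deltaFT NPC the peak at chr12:110765706-110765974 had 48.96% of 96 reads (38.61 to 59.37%), where mESC had 38.58% of 127 (30.08 to 47.63%). Wild-type NPC had no reproducible peak in the Meg3 window, and 1 and 0 peaks in its library lists, where mESC had 8 and 11.

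Grb10 also lay in a stretch that leaned, here to the first-listed allele in all 3 lines. The 2 Mb around the window were at 57.67% in deltaFT NPC, 59.31% in wild-type NPC and 56.89% in mESC, and the window at 60% (49.98 to 69.44%), 65.52% (57.18 to 73.21%) and 60% (54.88 to 64.96%). The site at chr11:11873262-11873693 had 31 first-listed and 10 second-listed reads in deltaFT NPC (75.61%, 59.70 to 87.64%), 27 and 6 in wild-type NPC (81.82%, 64.54 to 93.02%) and 18 and 15 in mESC (54.55%, 36.35 to 71.89%). Both NPC lines leaned the same way, and all 3 intervals overlap. At chr11:11925565-11926578 the deltaFT peaks had 44.44% of 18 and 52.17% of 46 reads, wild-type NPC 57.41% of 54 and mESC 62.86% of 35. In wild-type NPC the peak with most allelic reads, at chr11:11832311-11832771, had 63.79% of 58 (50.12 to 76.01%). In mESC it was the peak at chr11:11848992-11849362, with 69.39% of 196 (62.42 to 75.76%), above the surrounding stretch. That peak and its neighbour at chr11:11842485-11842969 (47.27% of 55 reads, 33.65 to 61.20%) were in no NPC list. Both stood between the 94.3 and the 98.5 percentile in the mESC library lists and the 4 TXY lists.

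**Figure D3:**
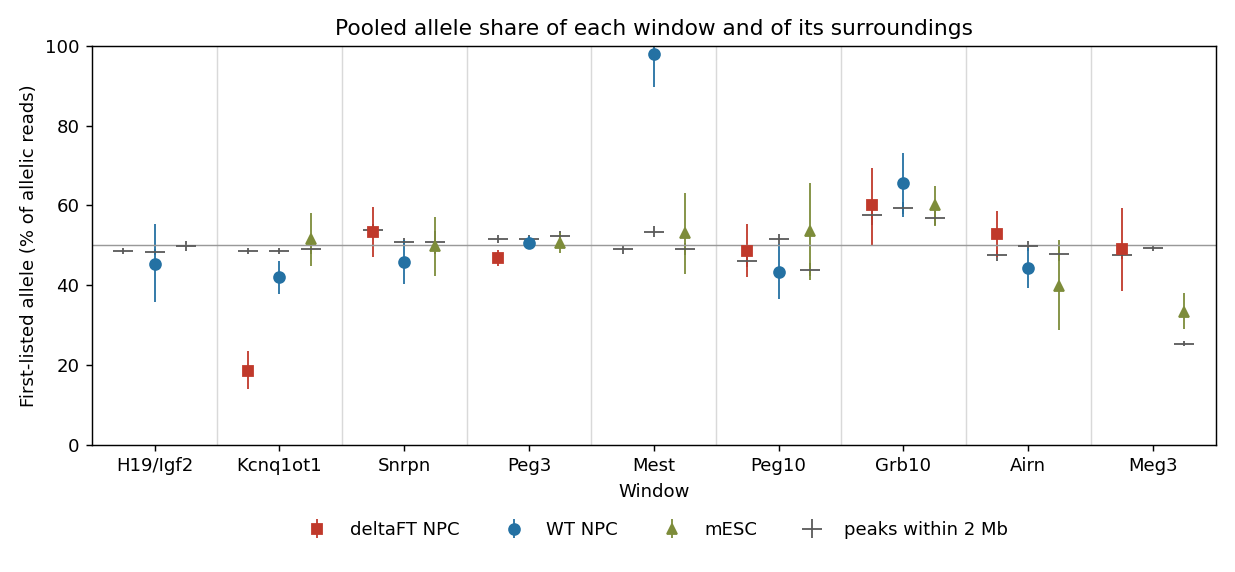
First-listed share of allelic reads (y axis, percent) pooled over each window (x axis) with at least 20 allelic reads, with exact 95% intervals, for deltaFT NPC, wild-type NPC and mESC; grey bars give the peaks within 2 Mb on either side of the window in the same line. The Kcnq1ot1 window of deltaFT NPC (18.48%) and the Mest window of wild-type NPC (98.08%) stand farthest from their surroundings, while the Meg3 window of mESC (33.41%) lies in a stretch at 25.34%.

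Matched peaks were then compared between lines, with peaks of different lines paired by largest overlap and called different where their 95% intervals did not overlap. Of 16 usable deltaFT peaks matched to wild-type NPC, 4 differed, against 10.2% of autosomal matches. They lie at 3 of 13 sites, namely Kcnq1ot1 with 2 peaks, Peg3 and the Airn site at chr17:12952494-12953009. Of 9 usable wild-type NPC peaks matched to mESC, 1 differed, the Mest peak, against 11.4% of autosomal matches, a share near the background. Among matches with at least 100 allelic reads in each line, 2 of 7 deltaFT peaks differed from wild-type NPC, against 13.4% of autosomal matches. None of 3 wild-type NPC peaks differed from mESC, against 14.3%.

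Read levels were compared as RPM per kb of peak. The 16 matched deltaFT peaks had a median log2 ratio of -0.33 over wild-type NPC, where the autosomal median was -0.01 and the 5th and 95th percentiles were -0.93 and 0.81. The 3 peaks below the 5th percentile were among those whose allele shares differed: the smaller Kcnq1ot1 peak at -2.36, the Airn peak at -1.30 and the Peg3 peak at -1.26. Fewer reads of 1 allele also lower the total, so the 2 measures are not independent. The larger Kcnq1ot1 peak was at -0.33. The smaller, 348 bp wide, was set against the whole wild-type peak of 969 bp. Over that whole site the reads were 56.0 RPM in deltaFT NPC and 132 in wild-type NPC. The deltaFT line had 2 peaks where wild-type NPC had 1 at the Kcnq1ot1, main Peg3 and last Grb10 sites, so those ratios share the wild-type value. The 10 wild-type NPC peaks matched in mESC had a median log2 ratio of 0.19, with 3 above the autosomal 95th percentile of 0.51, where the autosomal median was -0.48. The 3 were an Airn peak at 1.19 (chr17:12934028-12934511) and Peg3 peaks at 0.57 and 0.52. The lowest of the 10 were Snrpn at -1.15 and Mest at -1.13.

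The windows were more alike between the NPC lines than between NPC and mESC, as autosomal peaks were. In the reproducible lists 16 of 20 deltaFT peaks (80%) were found in wild-type NPC, against 72.1% of autosomal peaks, and 13 of 22 wild-type NPC peaks (59.1%) were found in deltaFT NPC, against 66.0%. Of the wild-type NPC peaks 10 of 22 (45.5%) were found in mESC, against 31.7%, and of the mESC peaks 10 of 28 (35.7%) were found in wild-type NPC, against 46.3%. With the library lists added, 18 of 20 deltaFT peaks (90%) were found in wild-type NPC, against 94.5% of autosomal peaks, and 18 of 22 wild-type NPC peaks (81.8%) in deltaFT NPC, against 89.4%. Of the 28 mESC peaks 12 (42.9%) were in no NPC list of any kind, against 36.9% of autosomal peaks. They included 4 of 6 at Meg3 and 3 of 6 at Grb10. In no mESC or TXY list were 5 of 20 deltaFT peaks (25%), against 29.3% of autosomal peaks, and 7 of 22 wild-type NPC peaks (31.8%), against 34.9%. They lay in the Kcnq1ot1, Airn and Peg10 windows. These shares lie on both sides of their backgrounds. The widest gaps, between wild-type NPC and mESC in the reproducible lists, go opposite ways and rest on 22 and 28 peaks. All 3 Peg3 sites were in every list. Between the 2 libraries of a line, 66.7 to 97.1% of the window peaks of 1 library were found in the other, against 64.3 to 84.0% of autosomal peaks.

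**Figure D4:**
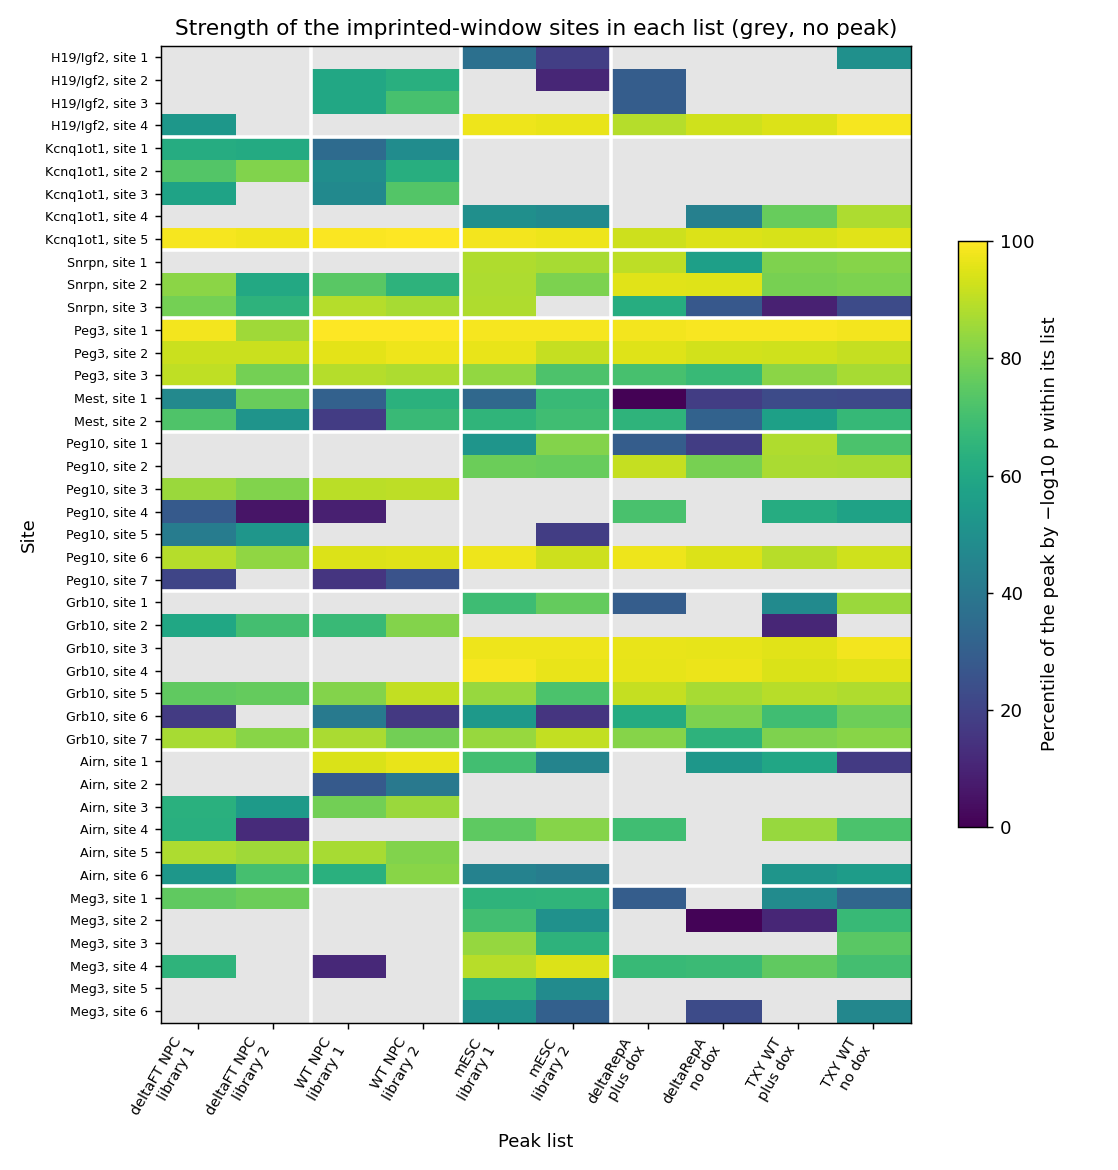
Percentile of each of the 43 sites by the authors' −log10 p within each of 10 peak lists (colour; grey, no peak), with sites in rows, numbered from the lowest coordinate of each window, and, in columns, both libraries of deltaFT NPC, wild-type NPC and mESC and the 4 TXY lists. Peg3 sites 1 and 2, Kcnq1ot1 site 5 and Peg10 site 6 lie at the 83.5 percentile or above in all 10 lists, the 2 strongest Grb10 sites of mESC are absent from the 4 NPC libraries, and 3 Kcnq1ot1 sites are absent from all mESC and TXY lists.

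The male TXY lists gave a further view of these loci in stem cells. Of the female peaks, 11 of 20 in deltaFT NPC (55.0%), 10 of 22 in wild-type NPC (45.5%) and 18 of 28 in mESC (64.3%) were found in all 4 TXY lists. The autosomal shares were 53.3%, 47.3% and 89.9%. The mESC share was thus below its background: 10 mESC peaks were missing from at least 1 TXY list, 5 of them among the 6 at Meg3 and both at Airn. The Peg3, Mest, Peg10 and Snrpn peaks of mESC were in all 4 lists. Only 1 of the 28 mESC peaks, at Meg3, was in no TXY list at all. Beside the gaps at Meg3 stand the lean in allele share and the higher reads of the surrounding stretch in female mESC, given above. Their part in the gaps was not tested.

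Xist acts on its own chromosome, and the windows lie on autosomes. With dox, 32 of the 50 no-dox peaks in deltaRepA cells were found again (64.0%, 49.2 to 77.1%), against 68.7% of autosomal peaks. In TXY WT cells it was 40 of 62 (64.5%, 51.3 to 76.3%), against 62.1%. Both shares are close to their backgrounds. The peaks not found again were weak, with a median −log10 p of 4.31 in deltaRepA and 4.94 in TXY WT, where those found again had 7.53 and 10.18. Of the no-dox peaks with −log10 p of at least 10, all 12 in deltaRepA and 21 of 22 in TXY WT were found again, against 99.6% and 98.0% of autosomal peaks of that strength, so these counts are at the background. The exception, at −log10 p 11.67, is a Meg3 peak over the site at chr12:110777357-110777612. All 7 Peg10 peaks of deltaRepA and all 6 of TXY WT were found again. At Airn it was 0 of 3 in deltaRepA, on peaks with −log10 p of at most 5.8. In TXY WT it was 3 of 4 there, on peaks of at most 10.6.

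Between the genotypes without dox, 40 of 50 deltaRepA peaks (80%) were found in TXY WT, against 66.2% of autosomal peaks, and 40 of 62 TXY WT peaks (64.5%) in deltaRepA, against 60.4%.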

How the data were processed

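Per the submitters' processing notes, reads were handled with cutadapt, Bowtie2 and MACS2 on mm9. Their settings, the handling of duplicates, any shift to the Tn5 insertion site and the assignment of reads to alleles were not given in the sources used here. Files deposited by the authors for a female line are 1 list of peaks that both libraries support (IDR list), with raw read counts per peak and per allele, and 1 list per library. It is not stated if these counts come from 1 library or both. A TXY condition has 1 list, from merged libraries, without a replicate check. The fold enrichment (a ratio) and the −log10 p and q values in the library and TXY lists are the authors' deposited values, and −log10 p ranked and −log10 q filtered peaks within a list. No per-sample column was left unmapped (0).

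A peak belonged to a window if it overlapped it by at least 1 bp. Shares carry exact Clopper-Pearson 95% intervals, which cover counting error only. PCR copies of a fragment cannot be told from separate molecules, so the intervals may be too narrow. The background was the 19 autosomes without the windows. Computation used python 3.11.15, numpy 2.4.6, pandas 2.3.3, scipy 1.17.1 and matplotlib 3.10.9, and the steps were tested on simulated data. The members and lists were chosen with earlier results of these data known. Described in full were, per window and line, the peak with most allelic reads, and every peak with at least 20 allelic reads of which 1 allele held at least 80%. Other peaks that are named, and the promoters shown, were chosen after their values were seen. Alternatives were another minimum of allelic reads, other limits, centring on the surrounding 2 Mb, 99% intervals, larger overlaps and stronger peaks.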

Additional observations from a re-analysis of the deposited data

Results flagged for a closer look

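The number of window peaks moved opposite ways with dox in the 2 TXY genotypes. DeltaRepA cells had 52 peaks plus dox and 50 no dox, a difference of 2 peaks (4.0%), where autosomal peaks differed by 10.7%. TXY WT cells had 52 peaks plus dox and 62 no dox, a difference of -10 peaks (-16.1%), where autosomal peaks differed by -9.76%. In both genotypes the windows moved the same way as the autosomes. The difference between the genotypes was not tested, since each condition is 1 merged list.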

How the results depend on the processing

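Of 74 alternative values for 36 results, 58 were scored as the same and 16 as moved. Some of the 58 could not move. For many pooled shares, a minimum of 20 allelic reads per peak left out no read, as for Peg3 (3809 allelic reads) and Mest (52) in wild-type NPC. The count of 58 is therefore not a measure of how stable the results are. At a limit of 90% the unequal peaks were 2 in deltaFT NPC and 1 in wild-type NPC, and after centring on the share of the surrounding 2 Mb they were 1 in wild-type NPC and 0 in mESC. Without the peak with most allelic reads, the pooled first-listed share was 46.67% for Kcnq1ot1, 40.94% for Peg3 and 66.10% for Airn in deltaFT NPC. It was 37.41% for Snrpn, 54.17% for Peg3 and 38.97% for Airn in wild-type NPC, and 39.53% for Mest and 50.00% for Grb10 in mESC. At least 100 allelic reads in each line was an alternative chosen after seeing the data. With it, 2 of 7 matched peaks differed between deltaFT NPC and wild-type NPC, against 13.4% of autosomal matches. Between wild-type NPC and mESC it was 0 of 3, against 14.3%. Among no-dox peaks with −log10 q of at least 5, 100% of 17 were found again with dox in deltaRepA and 96.3% of 27 in TXY WT, against 97.5% and 92.6% of autosomal peaks. No paired analysis was possible because each group is 1 sample. Allelic depth limits some H19/Igf2 and Meg3 peaks, where peaks with over 100 reads held 6 or fewer allelic reads. Leaving out a replicate was not possible with 1 sample per group, and allele counts are not given per library in the files used here.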
